A study of Mus musculus with 12 samples.

Results

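Expression of collagens and of other matrix genes of the bone-marrow stroma was followed on 12 arrays of pro-B cells purified from mouse bone marrow. The 55 genes were taken by name, as all 44 genes whose single array symbol had the form of a collagen chain together with 11 listed matrix and stromal genes, of 19938 genes that a cluster with a single symbol measured. The rule found 57 clusters, and where a gene had several (Col6a5 and Col6a6), the cluster with the highest mean was used. Loxl2, Bglap and Spp1 were also listed, but no cluster carried any of them as its single symbol, and they are not analysed here.

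The 3 groups held 4 arrays each. The first came from mice heterozygous for both Cd72 and Pax5 (Cd72+/-;Pax5+/-, arrays 9 to 12 by the sample titles), the second from mice heterozygous for Pax5 alone (Pax5+/-, arrays 1 to 4) and the third from wild-type mice (WT, arrays 5 to 8). All mice were 1 month old and kept free of specific pathogens, and both mutant groups lack a copy of Pax5. In the labels the WT cells are pro-B cells and the mutant cells preleukemic precursors, and no strain, sex, sorting gate or treatment is given. Pax5 encodes the transcription factor that commits cells to the B lineage, and Cd72 an inhibitory co-receptor of B cells. Whether each array stands for its own animal is not stated, so a p-value here rests on array-to-array spread that may be technical.

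Collagens are trimeric proteins that form the fibrils, networks and basement membranes between cells. In bone marrow they are made by reticular stromal cells, osteoblasts and cells of the vessel walls, which also secrete fibronectin, Sparc, proteoglycans and the chemokine Cxcl12. B-cell precursors rest on this stroma and respond to Cxcl12, but they are not known as a main source of fibrillar collagen. In RNA of a whole cell preparation, fewer cells of a type and less RNA per cell cannot be told apart.

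Over all clusters tested, each group was divided into the 2 pairs of arrays with the smallest summed SD of differences. Any 4 arrays yield such a division. The closest pairs were 9 with 10 and 11 with 12 in Cd72+/-;Pax5+/-, 1 with 3 and 2 with 4 in Pax5+/-, and 5 with 7 and 6 with 8 in WT. In WT the SD was 0.109 and 0.117 within pairs and 0.270 to 0.280 across them. The separation was smaller in Pax5+/- (0.177 and 0.122 within, 0.195 to 0.281 across). It was least clear in Cd72+/-;Pax5+/- (0.117 and 0.125 within, 0.128 to 0.183 across). Whether the pairs are repeat arrays of a sample was not tested. Genotype and sex cannot be told apart for Cd72+/-;Pax5+/-. Xist, the RNA of the inactive X chromosome, read 11.75 to 11.90 on these arrays, 5.00 to 5.38 in Pax5+/- and 5.09 to 5.52 in WT. Uty, on the Y chromosome, read 4.88 to 5.19, 9.26 to 9.52 and 8.85 to 9.74 in the same groups. Bgn, Col4a5 and Col4a6 lie on the X chromosome. Cd72 averaged 7.51 ± 0.135 in Cd72+/-;Pax5+/-, 10.19 ± 0.111 in Pax5+/- and 8.90 ± 0.51 in WT, and Pax5 11.2 ± 0.083, 10.97 ± 0.26 and 11.57 ± 0.148 (log2 signal, SD, n = 4).

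A minority of the 55 genes varied widely, and they varied together. The signal of 9 members ranged over more than 1 log2 unit across the 12 arrays, that of 8 over 0.5 to 1 and that of 38 over less than 0.5, and the median range was 0.36 for the members, against 0.37 for all 23410 clusters tested. The wide members were highest on Pax5+/- arrays 1 and 3 and on WT arrays 5 and 7. They were lower on Pax5+/- arrays 2 and 4 and WT arrays 6 and 8, and mostly lowest on the Cd72+/-;Pax5+/- arrays. Counting Col1a1 itself, the 4 highest arrays were these same 4 for 16 of 55 members, 9 collagens and 7 others, whereas 3.71% of all clusters tested had the 4 highest arrays in common with Col1a1. For 4 members, Bgn, Cxcl12, Col12a1 and Col6a2, every Cd72+/-;Pax5+/- array lay below the other 8 arrays, as it did for 2.82% of all clusters.

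The promoter windows of 4 members are shown because they differ in how the gene behaved: Col1a2, Sparc and Cxcl12 were among the members with the widest range, and Ibsp, a bone matrix gene of osteoblasts, stayed within 0.30 log2 units. Each runs 5′ to 3′ from 250 bases before to 50 bases after the gene's start in RefSeq (GRCm38.p6). They lie at chr6:4505368-4505667 (plus strand) for Col1a2, chr11:55420031-55420330 (minus strand) for Sparc, chr6:117168285-117168584 (plus strand) for Cxcl12 and chr5:104299037-104299336 (plus strand) for Ibsp. Capitals mark matches to 3 words on either strand, those on the opposite strand appearing as the reverse complement. The first word is CCAAT, the core of a common promoter element. The second is the GC box GGGCGG, and the third the TATA box TATAAA.
Col1a2: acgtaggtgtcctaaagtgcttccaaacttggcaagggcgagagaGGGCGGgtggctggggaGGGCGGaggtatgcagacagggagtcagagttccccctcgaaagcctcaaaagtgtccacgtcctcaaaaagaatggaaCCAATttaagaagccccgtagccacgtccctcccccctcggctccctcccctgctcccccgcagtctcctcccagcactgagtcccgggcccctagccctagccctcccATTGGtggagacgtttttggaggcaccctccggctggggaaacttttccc
Sparc: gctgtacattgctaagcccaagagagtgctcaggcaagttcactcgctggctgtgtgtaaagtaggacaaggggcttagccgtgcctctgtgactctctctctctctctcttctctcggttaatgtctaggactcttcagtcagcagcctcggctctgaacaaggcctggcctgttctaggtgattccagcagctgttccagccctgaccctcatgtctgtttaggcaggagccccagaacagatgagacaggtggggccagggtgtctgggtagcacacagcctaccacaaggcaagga
Cxcl12: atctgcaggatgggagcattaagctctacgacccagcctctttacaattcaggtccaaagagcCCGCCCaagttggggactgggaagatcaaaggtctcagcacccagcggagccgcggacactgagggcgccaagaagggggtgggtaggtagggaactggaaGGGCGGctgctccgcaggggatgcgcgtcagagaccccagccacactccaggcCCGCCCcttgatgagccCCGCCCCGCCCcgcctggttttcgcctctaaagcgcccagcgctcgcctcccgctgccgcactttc
Ibsp: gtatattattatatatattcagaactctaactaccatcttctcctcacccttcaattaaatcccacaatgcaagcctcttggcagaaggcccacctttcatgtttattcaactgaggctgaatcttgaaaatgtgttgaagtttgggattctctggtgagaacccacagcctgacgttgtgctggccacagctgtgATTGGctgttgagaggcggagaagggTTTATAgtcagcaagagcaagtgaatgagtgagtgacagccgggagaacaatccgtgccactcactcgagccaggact
The Col1a2 window held GGGCGG at 2 places and CCAAT at 2, the Cxcl12 window held GGGCGG at 5 places of which 2 overlap by 1 base, and the Ibsp window held 1 CCAAT and 1 TATAAA. The Sparc window held none of the 3 words. RefSeq windows were matched by gene identifier for 41 of 55 members, 45 windows in all. GGGCGG was in 55.6% of the member windows and in 35.7% of all 32851 windows of that length, CCAAT in 33.3% and 37.4%, and TATAAA in 15.6% and 13.6%. These are descriptions of the letters in the windows.

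**Figure D1:**
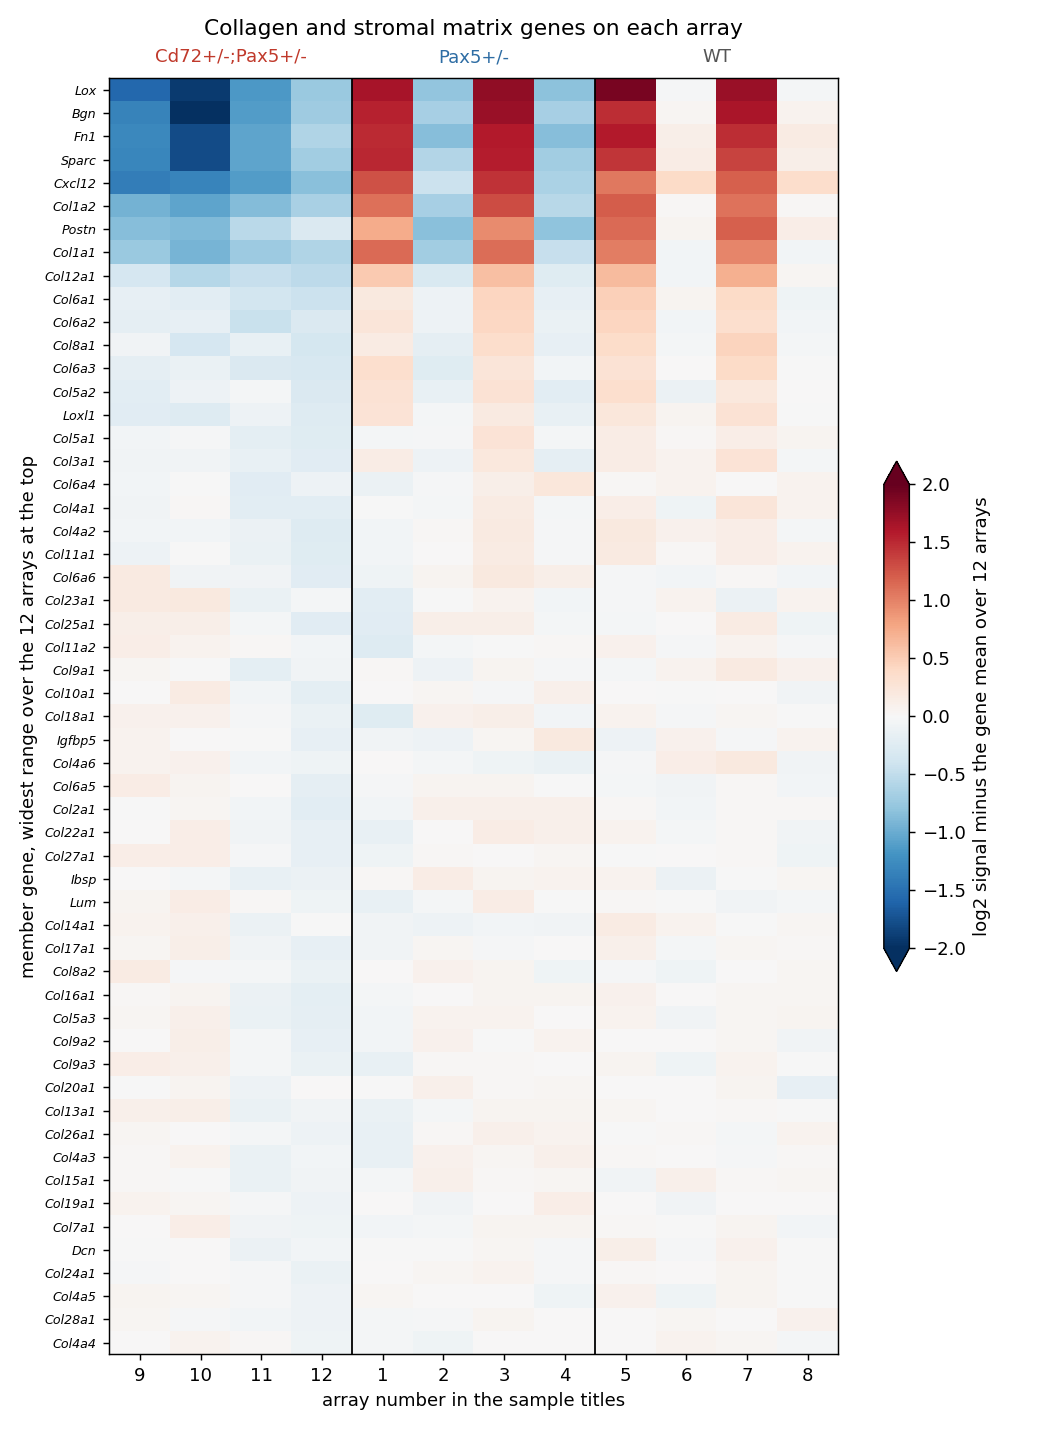
Deviation of each of the 55 members (rows, widest range at the top) from its own mean over the 12 arrays (columns, array numbers of the sample titles), in log2 units by the colour scale. The wide members at the top are red on Pax5+/- arrays 1 and 3 and on WT arrays 5 and 7 and blue on the Cd72+/-;Pax5+/- arrays, and the 38 members with a range under 0.5 are nearly colourless.

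In Cd72+/-;Pax5+/- against WT, 5 of 55 members passed the test and all 5 fell: Bgn, Sparc, Cxcl12, Col12a1 and Loxl1 (limma, Benjamini-Hochberg adjusted p under 0.05 over all clusters tested). Of all clusters tested, 3.66% fell and 7.78% passed in either direction, so the members' share, 5 of 55, was above the share of clusters that fell and close to the share that passed in either direction. With the arrays of each closest pair averaged, 0 members passed in limma in any of the 3 comparisons, with an adjusted p of 0.406 for Cxcl12 against WT, and with the pairs as a random block 1 passed against WT, Cxcl12. Cxcl12, the chemokine that keeps B-cell precursors in the marrow, passed in Cd72+/-;Pax5+/- against Pax5+/- too, the single one of 55 members to do so, where 5.35% of clusters fell and 9.79% passed in either direction.

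Cxcl12 is a secreted signal that stromal cells display on their surface and matrix. Its log2 signals were 6.42, 6.48, 6.68 and 6.96 on Cd72+/-;Pax5+/- arrays 9 to 12. They were 9.08, 7.37, 9.25 and 7.17 on Pax5+/- arrays 1 to 4, and 8.86, 8.19, 9.00 and 8.16 on WT arrays 5 to 8. All 4 Cd72+/-;Pax5+/- arrays lay below the other 8, while the Pax5+/- arrays were divided, with 1 and 3 above every WT array and 2 and 4 below every WT array. Cxcl12 fell by 1.92 log2 units in Cd72+/-;Pax5+/- against WT (SE 0.424, limma adjusted p = 0.0141), which is 3.78-fold. Against Pax5+/- it fell by 1.58 (limma adjusted p = 0.0328), a call lost when any single Cd72+/-;Pax5+/- array or Pax5+/- array 1 or 3 was left out (adjusted p 0.0523 to 0.0926). Between Pax5+/- and WT the difference was -0.34 (adjusted p = 0.782).

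Fn1, Lox and Loxl1 act outside the cell on the fibrils: Fn1 encodes fibronectin, on which collagen fibrils assemble, and Lox and Loxl1 encode oxidases that cross-link collagen and elastin. Lox ranged most widely of the 55 members, over 3.81 log2 units. Its signals were 6.83, 6.50, 7.26 and 7.67 on Cd72+/-;Pax5+/- arrays 9 to 12, 10.06, 7.61, 10.18 and 7.59 on Pax5+/- arrays 1 to 4, and 10.31, 8.38, 10.13 and 8.36 on WT arrays 5 to 8. Every Cd72+/-;Pax5+/- array lay below every WT array, while array 12 at 7.67 overlapped the lower Pax5+/- arrays. The difference of -2.23 in Cd72+/-;Pax5+/- against WT (SE 0.657) missed the threshold (limma adjusted p = 0.0604). Fn1 read 7.92, 7.41, 8.15 and 8.60 in Cd72+/-;Pax5+/-, 10.70, 8.36, 10.80 and 8.36 in Pax5+/-, and 10.80, 9.32, 10.69 and 9.37 in WT, in the order of the array numbers. Here too the Cd72+/-;Pax5+/- arrays were below all WT arrays and overlapped Pax5+/- arrays 2 and 4, and the difference of -2.03 against WT did not pass (limma adjusted p = 0.056). Loxl1 moved over a narrower range, with 6.68, 6.65, 6.81 and 6.66 in Cd72+/-;Pax5+/-, 7.19, 6.87, 7.09 and 6.77 in Pax5+/-, and 7.14, 6.97, 7.20 and 6.91 in WT. It fell by 0.35 against WT (SE 0.0933, limma adjusted p = 0.0362). The difference of Loxl1 against Pax5+/- was -0.28 (adjusted p = 0.0843).

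Bgn, Sparc and Postn encode matrix proteins that bind collagen without being part of the triple helix. Bgn, which encodes the small proteoglycan biglycan, read 7.90, 7.24, 8.11 and 8.53 in Cd72+/-;Pax5+/-, 10.78, 8.57, 10.96 and 8.57 in Pax5+/-, and 10.71, 9.27, 10.86 and 9.31 in WT. All Cd72+/-;Pax5+/- arrays were below the other 8, the nearest being array 12 at 8.53 under Pax5+/- arrays 2 and 4 at 8.57. Bgn fell by 2.09 against WT (SE 0.586, limma adjusted p = 0.0487, 4.26-fold), and the difference of -1.78 (adjusted p = 0.0816) against Pax5+/- did not pass. Sparc, also known as osteonectin, read 7.98, 7.50, 8.23 and 8.59 in Cd72+/-;Pax5+/-, 10.79, 8.70, 10.85 and 8.59 in Pax5+/-, and 10.71, 9.44, 10.63 and 9.40 in WT. It fell by 1.97 against WT (SE 0.532, limma adjusted p = 0.0408, 3.92-fold), and differed by -1.66 against Pax5+/- (adjusted p = 0.0739). Cd72+/-;Pax5+/- array 12 and Pax5+/- array 4 gave the same Sparc signal. Postn, which encodes periostin, read 6.11, 6.08, 6.43 and 6.67 in Cd72+/-;Pax5+/-, 7.70, 6.12, 7.90 and 6.16 in Pax5+/-, and 8.10, 7.01, 8.16 and 7.10 in WT. For Postn, Pax5+/- arrays 2 and 4 lay inside the range of the Cd72+/-;Pax5+/- arrays, and the difference of -1.27 in Cd72+/-;Pax5+/- against WT missed the threshold (limma adjusted p = 0.0905).

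Type I collagen, the main fibril of bone and of the marrow stroma, is built from the products of Col1a1 and Col1a2. Col1a1 read 8.64, 8.45, 8.65 and 8.78 in Cd72+/-;Pax5+/-, 10.51, 8.69, 10.49 and 8.92 in Pax5+/-, and 10.41, 9.32, 10.36 and 9.33 in WT. Col1a2 read 7.92, 7.81, 7.99 and 8.21 in Cd72+/-;Pax5+/-, 9.96, 8.20, 10.16 and 8.30 in Pax5+/-, and 10.07, 8.89, 9.94 and 8.89 in WT. Both genes set the Cd72+/-;Pax5+/- arrays below every WT array, and both overlapped Pax5+/- array 2. The differences in Cd72+/-;Pax5+/- against WT were -1.23 for Col1a1 (SE 0.409, limma adjusted p = 0.0992) and -1.47 for Col1a2 (SE 0.436, limma adjusted p = 0.0631), and neither passed. Exact two-sided permutation tests of both gave p = 0.0286, the smallest that 4 arrays against 4 can give. This p follows from the lack of overlap alone, which 7.23% of all clusters showed in the same direction. Col3a1 and Col5a1 to Col5a3 encode chains of the fibrils that join type I. Col3a1 had the same 4 highest arrays as Col1a1 within a range of 0.50, from 7.43 to 7.59 in Cd72+/-;Pax5+/-, 7.47 to 7.87 in Pax5+/- and 7.62 to 7.93 in WT. Col5a2 read 6.52, 6.62, 6.68 and 6.43 in Cd72+/-;Pax5+/-, 7.02, 6.57, 7.01 and 6.51 in Pax5+/-, and 7.06, 6.61, 6.94 and 6.73 in WT. Col5a1 read 7.74, 7.77, 7.61 and 7.56 in Cd72+/-;Pax5+/-, 7.76, 7.77, 8.07 and 7.76 in Pax5+/-, and 7.95, 7.83, 7.93 and 7.85 in WT. Col5a2 had the 4 highest arrays of Col1a1, but Cd72+/-;Pax5+/- arrays 10 and 11 lay above WT array 6. Col5a1 stood out on Pax5+/- array 3 alone within its group, and neither gene passed in any comparison. Col5a3 stayed between 7.57 and 7.85.

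Col12a1 encodes a collagen that decorates the surface of type I fibrils. It read 6.34, 6.10, 6.21 and 6.15 in Cd72+/-;Pax5+/-, 7.19, 6.37, 7.28 and 6.43 in Pax5+/-, and 7.30, 6.62, 7.39 and 6.71 in WT. The Cd72+/-;Pax5+/- arrays were all below the other 8, and Col12a1 fell against WT, with a difference of -0.81 (SE 0.224, limma adjusted p = 0.0472), the single collagen of 44 to pass. Its difference of -0.62 against Pax5+/- did not pass (adjusted p = 0.115). Col14a1 and Col16a1, of the same kind of collagen, ranged over 0.29 and 0.28.

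Col6a1, Col6a2 and Col6a3 encode the chains of the beaded filaments around many stromal cells. Col6a1 read 8.01, 7.96, 7.80 and 7.74 in Cd72+/-;Pax5+/-, 8.37, 8.07, 8.60 and 8.01 in Pax5+/-, and 8.65, 8.22, 8.56 and 8.08 in WT. Col6a2 read 7.63, 7.65, 7.36 and 7.52 in Cd72+/-;Pax5+/-, 8.05, 7.70, 8.22 and 7.67 in Pax5+/-, and 8.24, 7.75, 8.14 and 7.75 in WT. All 3 chains had the 4 highest arrays of Col1a1, and for Col6a2 every Cd72+/-;Pax5+/- array was below the other 8. Col6a3 read 7.18, 7.22, 7.06 and 7.03 in Cd72+/-;Pax5+/-, 7.69, 7.11, 7.60 and 7.30 in Pax5+/-, and 7.64, 7.36, 7.73 and 7.34 in WT. The differences in Cd72+/-;Pax5+/- against WT were -0.50 for Col6a1 (limma adjusted p = 0.0581), -0.43 for Col6a2 (adjusted p = 0.0959) and -0.40 for Col6a3 (adjusted p = 0.0819), and none passed. The further type VI chains Col6a4, Col6a5 and Col6a6 ranged over 0.46, 0.33 and 0.41 and did not share the 4 highest arrays. Col8a1, a short collagen of vessel walls, read 6.70, 6.44, 6.62 and 6.42 in Cd72+/-;Pax5+/-, 6.94, 6.59, 7.13 and 6.61 in Pax5+/-, and 7.14, 6.73, 7.22 and 6.74 in WT. It too had the 4 highest arrays of Col1a1, with a difference of -0.41 against WT (limma adjusted p = 0.11).

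**Figure D2:**
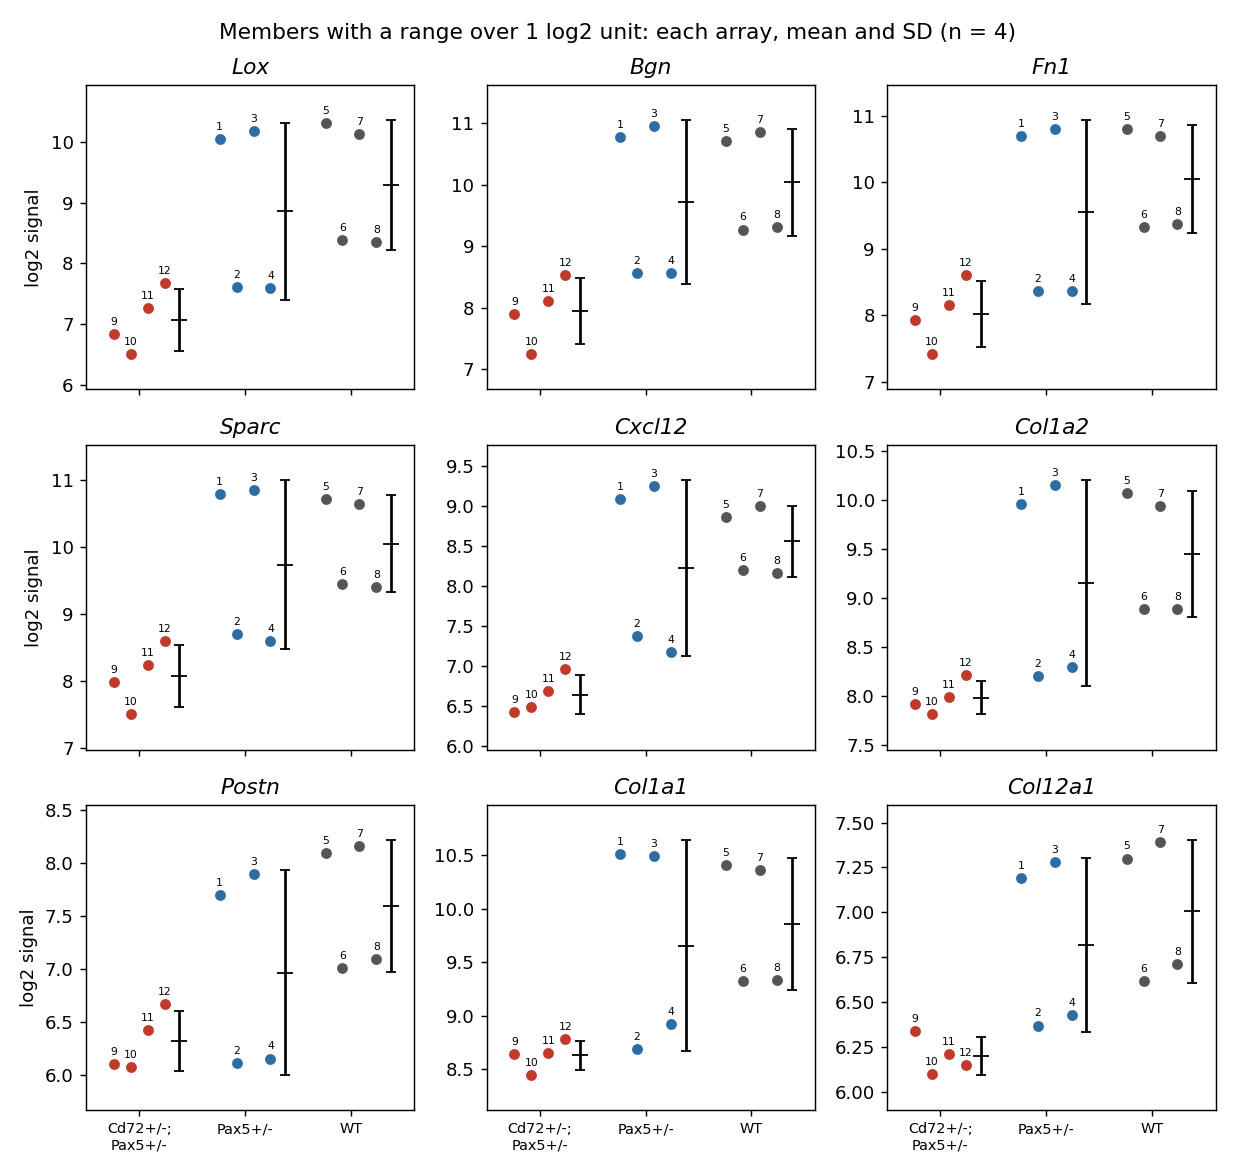
Log2 signal of the 9 members whose range exceeded 1 log2 unit, 1 point per array with its number, and to the right of each group its mean with a bar of 1 SD (n = 4). Each panel has its own vertical scale. Pax5+/- arrays 1 and 3 and WT arrays 5 and 7 are the 4 highest points in every panel, and the Cd72+/-;Pax5+/- points lie below all WT points.

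The other members stayed nearly level. The 39 that are not given array by array ranged over 0.16 to 0.50 log2 units, from Col4a4 at 6.92 to 7.08 to Col3a1. Among basement membrane chains, Col4a1 lay between 7.56 and 8.01 and Col4a2 between 7.19 and 7.63, and Col4a3 to Col4a6 ranged over 0.16 to 0.34. Cartilage chains were similarly level: Col2a1 lay between 7.83 and 8.15, Col10a1 between 5.95 and 6.31 and Col11a2 between 7.81 and 8.19. Dcn and Lum, which encode the proteoglycans decorin and lumican related to biglycan, lay between 4.70 and 4.92 and between 4.39 and 4.69. Both are abundant in many fibroblasts, and neither shared the order of Bgn. Igfbp5, which encodes a binding protein of insulin-like growth factors, lay between 5.96 and 6.31. Ibsp, which encodes bone sialoprotein, lay between 5.80 and 5.96 in Cd72+/-;Pax5+/-, 5.97 and 6.10 in Pax5+/-, and 5.84 and 6.03 in WT. Its Cd72+/-;Pax5+/- arrays were just below all Pax5+/- arrays, by a mean of 0.15, and the difference did not pass (limma adjusted p = 0.121). No detection calls were used, so a level signal does not say whether the gene was expressed.

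The members were also counted by whether the groups overlapped. All 4 Cd72+/-;Pax5+/- arrays lay below all 4 WT arrays for 19 of 55 members, 12 collagens and 7 others, beside 7.23% of all clusters, and above them for none, beside 7.61%. The 19 held the 9 widest members, the 3 main type VI chains, Col3a1, Col4a2, Col5a1, Col6a4, Col8a1, Col11a1 and Loxl1. Against Pax5+/- the same held for 5 members, Bgn, Cxcl12, Col12a1, Col6a2 and Ibsp, beside 8.91%. In the limma fit, 20 members had an unadjusted p under 0.05 in Cd72+/-;Pax5+/- against WT and 16 against Pax5+/-, all lower, beside 9.68% and 11.1% of all clusters. The median difference against WT was -0.06 for the 44 collagens and -1.27 for the 11 other members, while it was 0.0025 over all clusters tested. Against Pax5+/- these medians were -0.05 and -0.65, beside 0.005.

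Between Pax5+/- and WT, 0 of 55 members passed in limma, beside 7.47% of all clusters. None passed with quantile normalization, array weights or a random block for the closest arrays, beside 1738, 1775 and 1133 of 23410 clusters. An unadjusted p under 0.05 was reached by 1 member, Col14a1, at 6.42 to 6.46 in Pax5+/- and 6.51 to 6.68 in WT, where 8.62% of all clusters did so with a lower signal. Its groups did not overlap, as for 4.87% of clusters in that direction, and the difference of -0.14 did not pass (limma adjusted p = 0.192). The 2 groups share the wide division instead: Col1a1 averaged 9.65 ± 0.983 in Pax5+/- and 9.86 ± 0.612 in WT (log2 signal, SD, n = 4), and Lox 8.86 ± 1.46 and 9.30 ± 1.07. With arrays 1 and 3 of Pax5+/- left out, 5 of 55 members passed between Pax5+/- and WT, beside 2515 of 23410 clusters. Those 2 arrays form a closest pair.

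**Figure D3:**
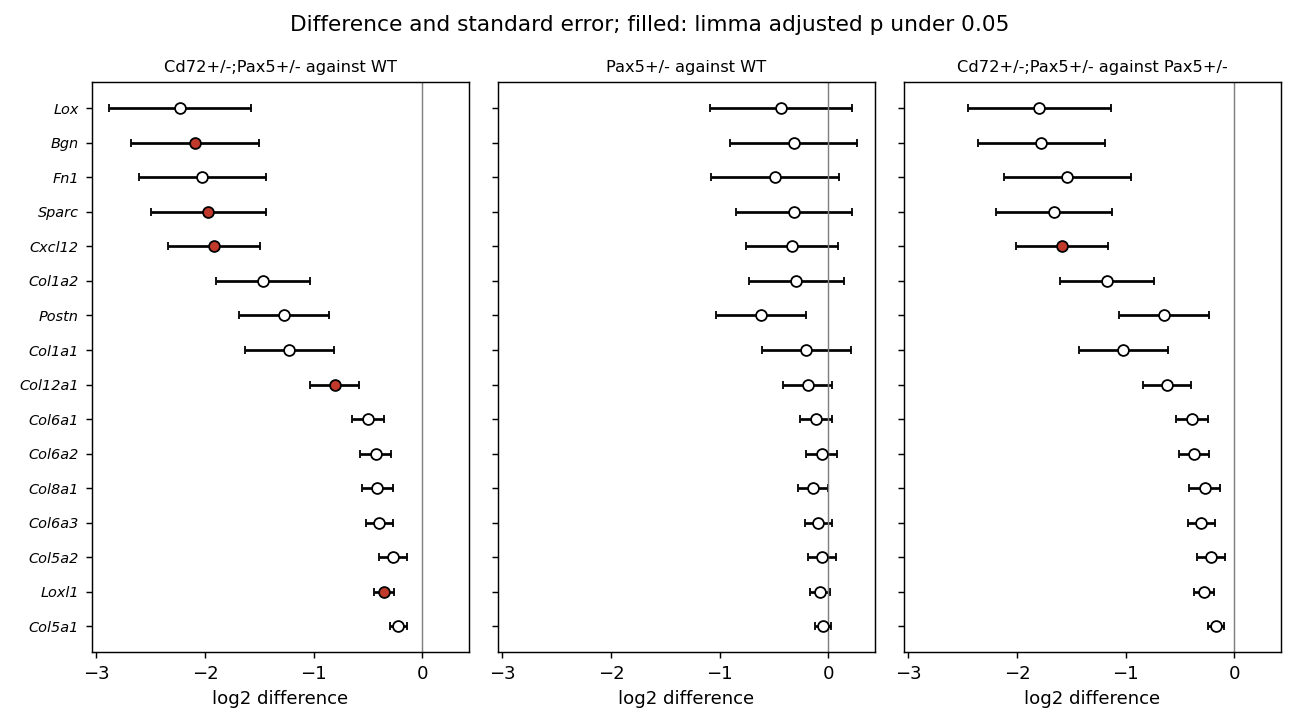
Log2 difference (horizontal axis) with its limma standard error for the 16 members given array by array, in 3 comparisons. Filled points have a limma adjusted p under 0.05: Bgn, Sparc, Cxcl12, Col12a1 and Loxl1 in Cd72+/-;Pax5+/- against WT, none in Pax5+/- against WT, and Cxcl12 in Cd72+/-;Pax5+/- against Pax5+/-.

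The division of the arrays did not follow the genotype labels alone. Within a closest pair the 9 widest members differed by at most 0.66 and 0.45 in Cd72+/-;Pax5+/-, 0.20 and 0.23 in Pax5+/-, and 0.18 and 0.09 in WT. Beside the loss of calls with closest pairs averaged, the count of 5 falls against WT changed when 1 array was left out. Without Cd72+/-;Pax5+/- array 9, 10, 11 or 12 it was 1, 2, 2 and 1, and without WT array 5 or 7 it was 1. Of all 23410 clusters, 1821 passed in the main fit. With the Cd72+/-;Pax5+/- arrays left out in turn, 1369, 1257, 1333 and 1369 passed, and without WT array 5 or 7, 1445 and 1563. Cxcl12 passed against WT in each of these fits, and the others passed in fewer. Without WT array 6 or 8 the count of members was 6, beside 1774 and 1573 clusters. In Cd72+/-;Pax5+/- against Pax5+/-, 3 members passed without Pax5+/- array 2 and 4 without array 4, beside 2019 and 1931 clusters.

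Genes that build and process collagen were examined from a list of 28 measured enzymes and chaperones. In Cd72+/-;Pax5+/- against WT, 2 fell, none rose and 26 did not pass, where 3.66% of all clusters fell and 4.12% rose. Plod2, a lysyl hydroxylase that marks collagen for cross-linking, averaged 7.81 ± 0.083 in Cd72+/-;Pax5+/- and 8.74 ± 0.302 in WT (n = 4 each) and fell by 0.94 (limma adjusted p = 0.000618). P4ha1, a subunit of the prolyl hydroxylase that stabilises the triple helix, fell by 0.42 (limma adjusted p = 0.0155). Against Pax5+/-, Plod2, P4ha1, Plod1 and Colgalt1 fell, by 0.82, 0.38, 0.45 and 0.30, beside 5.35% of all clusters that fell. Between Pax5+/- and WT, 7.47% of all clusters passed in either direction. In Pax5+/- against WT, Colgalt1, which adds galactose to collagen, rose by 0.35 (limma adjusted p = 0.000246), Plod3 rose by 0.28 (adjusted p = 0.00563) and Sec24d, of the coat that exports procollagen, fell by 0.46 (adjusted p = 0.0331). The chaperone Serpinh1 did not pass. It and 5 more of the 28 had the 4 highest arrays of Col1a1.

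Of 28 other matrix proteins, 12 had the 4 highest arrays of Col1a1. Beside 3.66% of all clusters that fell, 1 of the 28 fell in Cd72+/-;Pax5+/- against WT. This was Ogn, which encodes the small proteoglycan osteoglycin and read 6.46, 6.10, 6.89 and 7.26 in Cd72+/-;Pax5+/-, 10.10, 7.15, 10.10 and 7.26 in Pax5+/-, and 10.04, 8.33, 10.11 and 8.43 in WT. Ogn repeated the division of Lox and Bgn and fell by 2.55 (limma adjusted p = 0.0443). Thbs1, which encodes thrombospondin, had a difference of -2.12 (adjusted p = 0.0512). Fbln1 and Lamc1 differed by genotype instead: in Pax5+/- against WT, Fbln1 (fibulin) rose by 0.60 (limma adjusted p = 0.000389) and Lamc1 (a laminin chain) fell by 0.29 (adjusted p = 0.0136). The other 26 did not pass there, where 7.47% of all clusters passed in either direction.

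Among 18 measured receptors of the matrix, 2 rose and 2 fell in Cd72+/-;Pax5+/- against WT, where 4.12% of all clusters rose and 3.66% fell. Cd44, the hyaluronan receptor, read 8.77, 8.69, 8.82 and 8.86 in Cd72+/-;Pax5+/-, 6.09, 5.96, 6.05 and 5.68 in Pax5+/-, and 8.00, 7.99, 8.08 and 7.99 in WT. It rose by 0.77 in Cd72+/-;Pax5+/- (limma adjusted p = 3.91e-05) and fell by 2.07 in Pax5+/- (adjusted p = 4.85e-09), both against WT, and its WT arrays did not show the division seen in the collagens. Itga5, the fibronectin receptor subunit, rose by 0.76 in Cd72+/-;Pax5+/- and by 1.78 in Pax5+/-. Itga11, a collagen receptor subunit of fibroblasts, fell by 1.12 in Cd72+/-;Pax5+/- (limma adjusted p = 0.048) and had the 4 highest arrays of Col1a1, and Sdc4 fell by 0.48 there. In Pax5+/- against WT, 3 rose (Itga5, Itga9, Sdc1) and 2 fell (Cd44, Sdc4), beside 7.47% of all clusters that passed in either direction. In Cd72+/-;Pax5+/- against Pax5+/-, Cd44 rose and Itga5, Itga9, Sdc1 and Itgav fell, beside 9.79%. Of 20 matrix proteases and inhibitors, Mmp13, a collagenase, was the single one to pass (limma). Mmp13 was higher by 2.06 in Cd72+/-;Pax5+/- and by 2.14 in Pax5+/-, both against WT. In these 2 comparisons 7.78% and 7.47% of all clusters passed in either direction.

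Markers of cell types that could carry the matrix RNA were compared with the members array by array. Of 19 reticular stromal and niche genes, 7 had the 4 highest arrays of Col1a1: Kitl, Pdgfrb, Vcam1, Angpt1, Prrx1, Snai2 and Gas6. Their list's mean signal was 6.19 to 6.29 in Cd72+/-;Pax5+/-, 6.17 to 6.55 in Pax5+/- and 6.32 to 6.60 in WT. That mean includes Bst1, which was low on all Pax5+/- arrays, at 7.08 to 7.43. Bst1 read 9.22 to 9.49 in Cd72+/-;Pax5+/- and 8.78 to 9.73 in WT. Gas6 read 7.02, 6.77, 6.76 and 7.03 in Cd72+/-;Pax5+/-, 8.20, 6.96, 8.35 and 7.05 in Pax5+/-, and 7.95, 7.28, 8.05 and 7.41 in WT. The leptin receptor Lepr, which defines the reticular cells that make most marrow Cxcl12, was level at 4.76 to 4.87, and Il7 lay between 4.65 and 4.87. None of the 19 passed in Cd72+/-;Pax5+/- against WT in limma, where 9 had an unadjusted p under 0.05, as did 19.7% of all clusters. In Pax5+/- against WT, Foxc1 rose by 0.64 and Bst1 and Csf1 fell by 2.01 and 0.49, where 7.47% of all clusters passed in either direction.

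Some markers of the mesenchymal wall cells moved with the members, and others stayed nearly level. Of 8 smooth muscle and pericyte genes, Acta2, Tagln and Mylk had the 4 highest arrays of Col1a1, as had 3.71% of all clusters. Myh11, Rgs5, Cspg4, Cnn1 and Des did not. They ranged over 0.20 to 0.45 log2 units, with Pearson's r with Col1a1 of -0.49 to 0.39. Acta2 read 7.93, 7.59, 8.01 and 8.24 in Cd72+/-;Pax5+/-, 9.25, 8.04, 9.10 and 8.13 in Pax5+/-, and 9.07, 8.23, 9.01 and 8.28 in WT. Acta2 did not pass, and Mylk, which encodes the myosin light chain kinase of smooth muscle, was the single gene of the list that did. Mylk fell by 0.44 in Cd72+/-;Pax5+/- against WT (limma adjusted p = 0.016) and fell by 0.47 against Pax5+/- (limma adjusted p = 0.00789). In these 2 comparisons 3.66% and 5.35% of all clusters fell. Of 6 adipocyte genes, Lpl and Pparg had the 4 highest arrays of Col1a1 but did not pass, while Adipoq was level at 5.64 to 5.83. Of 12 osteoblast and osteocyte genes, 1 had these 4 highest arrays (Tnfrsf11b, which did not pass), and the osteoblast regulator Sp7 lay between 5.64 and 5.91. All 10 chondrocyte genes ranged over at most 0.34 and all 10 granulocyte genes over at most 0.37. None of the 12 endothelial, 8 osteoclast, 6 erythroid and 4 megakaryocyte genes had the 4 highest arrays of Col1a1. Of 11 monocyte and macrophage genes 2 did, Ccr2 and Vcam1, which the reticular list holds too, and of 11 pro-B cell genes 2 did, Rag2 and Dntt, which is 18.2% of each list beside 3.71% of all clusters. The part of any of these cell types in the result was not tested.

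The list of pro-B cell genes, which checks the labelled cell type, had a mean log2 signal of 11.11 to 11.29 in Cd72+/-;Pax5+/-, 11.38 to 11.50 in Pax5+/- and 10.84 to 11.74 in WT. Within WT it moved with the matrix genes, at 11.70 and 11.74 on arrays 5 and 7 and 10.90 and 10.84 on arrays 6 and 8. Within Pax5+/- it did not, at 11.50 and 11.38 on arrays 1 and 3 and 11.46 and 11.42 on arrays 2 and 4. Dntt, which encodes the polymerase that adds bases at the joints of antibody genes, read 8.29, 8.52, 8.40 and 8.85 in Cd72+/-;Pax5+/-, 10.82, 10.57, 10.61 and 10.54 in Pax5+/-, and 11.93, 9.76, 11.92 and 9.82 in WT. All its Cd72+/-;Pax5+/- arrays were below the other 8, and within WT it divided as the matrix genes did. Dntt fell by 2.34 in Cd72+/-;Pax5+/- against WT (limma adjusted p = 0.00515). Ebf1, a regulator of early B cells, rose by 0.25 there (adjusted p = 0.0326), and Cd79a, a chain of the B-cell receptor complex, fell by 0.33 in Pax5+/- against WT (adjusted p = 0.00538).

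**Figure D4:**
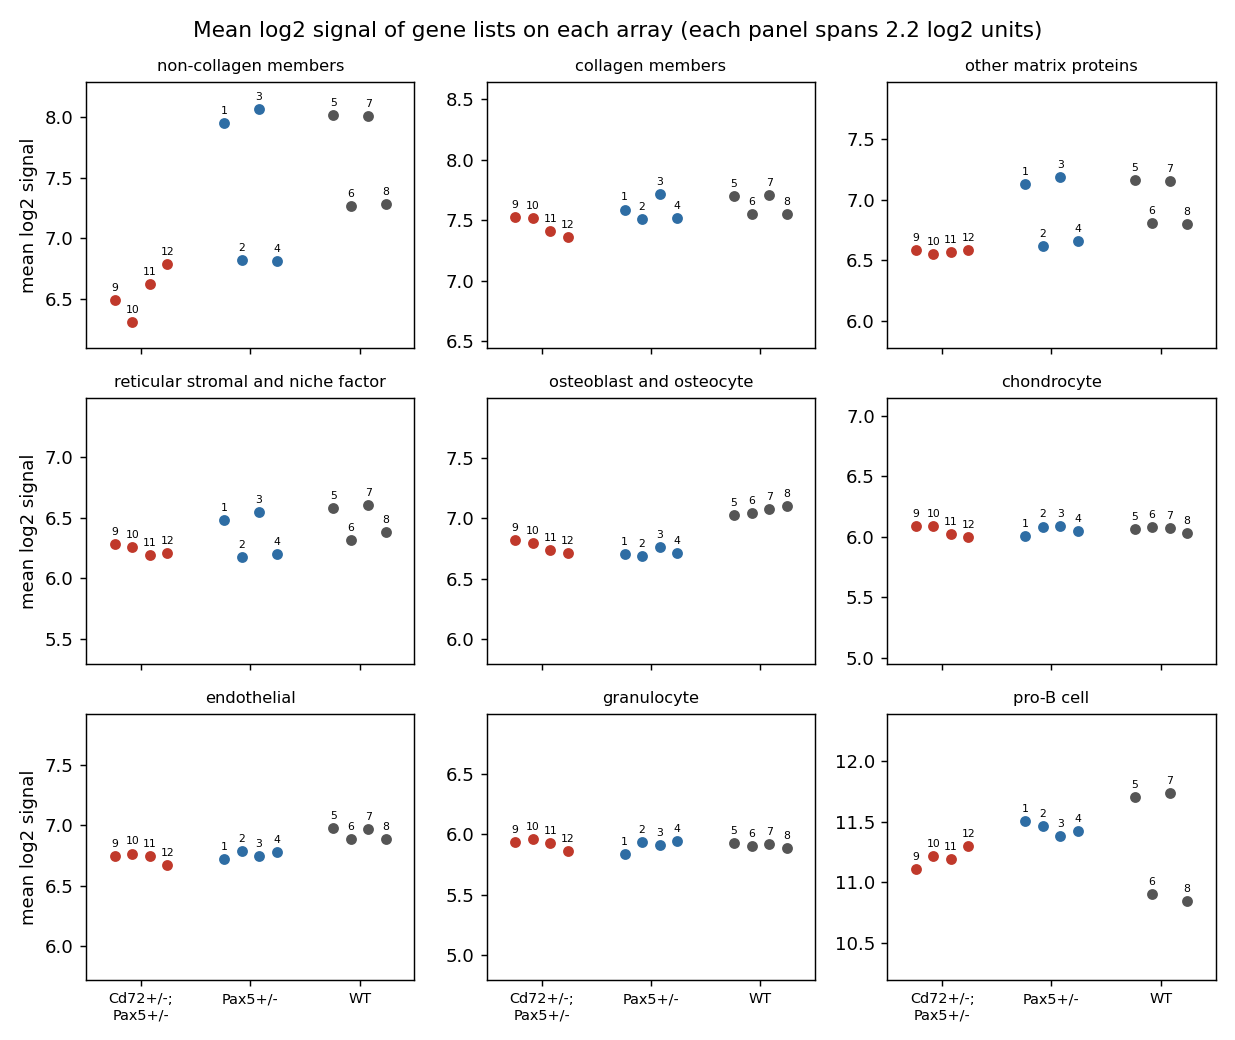
Mean log2 signal of 9 gene lists on each array, 1 point per array with its number, every panel spanning 2.2 log2 units. The non-collagen members and the other matrix proteins are highest on Pax5+/- arrays 1 and 3 and WT arrays 5 and 7, the 44 collagens move little on average, and the chondrocyte and granulocyte means are nearly level. The endothelial mean is 6.88 to 6.97 in WT, above Cd72+/-;Pax5+/- (6.67 to 6.77) and Pax5+/- (6.72 to 6.78).

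The genes outside the 55 whose signal ran most like that of Col1a1 over the 12 arrays were Eya4, Timp2, Abi3bp, Ctnnd1, Ogn, Lpl, Aebp1, Tbx15, Prelp and Bmp4, with Pearson's r of 0.986 to 0.992. Timp2, an inhibitor of matrix proteases, read 6.88, 6.57, 7.09 and 7.44 in Cd72+/-;Pax5+/-, 9.65, 7.47, 9.67 and 7.37 in Pax5+/-, and 9.63, 8.16, 9.60 and 8.12 in WT. It repeats the division of Lox, with arrays 1, 3, 5 and 7 within 0.07 of each other. In all, 91 of 21732 single-symbol clusters outside the members had r over 0.95. These correlations are descriptions over arrays that fall into separate sets, so they largely restate that division.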

How the data were processed

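The 12 arrays of pro-B cell RNA were of the type Affymetrix Mouse Gene 1.0 ST. The authors deposited log2 signals per transcript cluster, which run here from 3.67 to 14.73 with medians per array between 6.91 and 7.005. Per the labels' design text the authors used the Transcriptome Analysis Console (v4.0.3). How background, normalization and probe summaries were handled, and on which build, is not given in the sources used here. Groups come from the sample titles, whose numbers 1 to 12 pair no arrays between groups. Gene names come from GEO's platform annotation: of 28944 clusters, 21789 carry 1 symbol, 1621 several and 5534 none, and the 23410 with a symbol were tested. Limma 3.58.1 in R 4.3.3 fitted 1 mean per group over all 12 arrays (9 residual degrees of freedom, with 3.28 more from a constant prior), with Benjamini-Hochberg adjustment over all clusters tested. The fit was tested on simulated data. The number of arrays limits the precision. Members were printed array by array if called or among the 16 with the widest range. Called genes of the companion lists are named, not each with its value in every comparison, and with them a few that did not pass, some chosen after their values were seen. Members, lists and rules were chosen with earlier results of these data known. Alternatives were other normalizations, filters, priors, thresholds, array weights, averaged or blocked closest pairs, and omission of arrays. Figures and counts used Python 3.11.15, pandas 2.3.3 and matplotlib 3.10.9, and promoter windows came from RefSeq.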

Additional observations from a re-analysis of the deposited data

Results flagged for a closer look

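Col5a1 on Pax5+/- array 3 stood far from the rest of its group, at a log2 signal of 8.07 where the nearest Pax5+/- array read 7.77 and the lowest 7.76, a gap of 0.968 of the group's whole range. It was the single value of this kind in 48 combinations of 16 members and 3 groups, and chance alone marks about 1 in 20 groups.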

How the results depend on the processing

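In Cd72+/-;Pax5+/- against WT, 5 members passed beside 1821 of 23410 clusters. Counts of members follow, with all clusters that passed in brackets. The count was 8 after quantile normalization (1891), 9 with a filter on dim clusters (1827 of 16765) and 3 over all clusters with or without a symbol (1954 of 28944). It was 12 with only the compared groups in the fit (2045), 0 with the closest pairs averaged (290) and 1 with them as a random block (1031). With array weights it was 16 (2787), at an adjusted p under 0.1 it was 15 (2588) and at the threshold of the study 8 (214). Leaving out an array or a closest pair gave 0 to 17, the last without WT arrays 6 and 8 (3645). In Pax5+/- against WT the count of 0 held except with Pax5+/- arrays 1 and 3 left out together, so that leaving out an array or pair gave 0 to 5 (2515 for the last). In Cd72+/-;Pax5+/- against Pax5+/-, 1 passed (2292). There it was 0 with closest pairs averaged (420), 4 at an adjusted p under 0.1 (3240) and 7 at the threshold of the study (280). With an array or pair left out it was 0 to 15, the last without Pax5+/- arrays 2 and 4 (2298). The cause of these changes was not tested. The filter on dim clusters left 53 members of 55. Over 1152 values of single members under alternatives, 64 lost and 79 gained a call. A further 48 changed sign, 46 of them in Pax5+/- against WT and none called in either fit.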

Other observations

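Some genes of the cell type lists differed between the genotypes. Of all clusters, 3.66% fell, 4.12% rose and 7.78% passed in either direction in Cd72+/-;Pax5+/- against WT. In Pax5+/- against WT 7.47% passed in either direction. Alpl, which encodes the tissue-nonspecific alkaline phosphatase of osteoblasts, averaged 8.85 ± 0.142 in Cd72+/-;Pax5+/-, 7.32 ± 0.0479 in Pax5+/- and 11.09 ± 0.336 in WT (log2 signal, SD, n = 4). It fell by 2.25 in Cd72+/-;Pax5+/- (limma adjusted p = 3.24e-07) and fell by 3.77 in Pax5+/- (limma adjusted p = 3.03e-09), both against WT. Within WT it was lower on arrays 5 and 7, at 10.76 and 10.85, than on arrays 6 and 8, at 11.34 and 11.42. Of the other 11 genes of the osteoblast and osteocyte list, Tnfsf11, which encodes the osteoclast factor RANKL, fell in Cd72+/-;Pax5+/- against WT, by 0.74 (limma adjusted p = 0.00262). Eng, which encodes endoglin, read 6.44 to 6.74 in Cd72+/-;Pax5+/-, 6.64 to 6.81 in Pax5+/- and 8.87 to 9.19 in WT, and was the single one of 12 endothelial genes to pass in Cd72+/-;Pax5+/- against WT, where it fell by 2.42 (limma adjusted p = 2.18e-09). Of 11 monocyte and macrophage genes, the chemokine receptor gene Ccr2 fell by 3.58 in the same comparison (limma adjusted p = 2.41e-06) and Cd68 rose by 0.36 (limma adjusted p = 0.00884). Ccr2 had the 4 highest arrays of Col1a1, with 10.56, 9.36, 10.62 and 9.27 on WT arrays 5 to 8. On Pax5+/- arrays 1 to 4 it was nearly level, at 10.45, 10.28, 10.33 and 10.10. Cd72+/-;Pax5+/- arrays 9 to 12 read 6.30, 6.42, 6.42 and 6.36. Egfl7, an endothelial gene, fell by 0.23 in Pax5+/- against WT (limma adjusted p = 0.0047).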
